A study of Drosophila melanogaster with 6 samples.

Results

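The 10 genes of the core apoptosis pathway described here were followed through RNA-seq libraries of the adult fly wing. They were chosen by symbol, each matched to its FlyBase gene identifier in the count files, and they were 10 of the 17476 genes listed there. They were the activator genes rpr, hid, grim and skl, the initiator caspase gene Dronc with its adaptor gene Dark, the effector caspase genes Drice and Dcp-1, and the inhibitor genes Diap1 and Diap2. A read was counted in at least 1 library for 9 of them, and 7 had enough counts to be tested.

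The libraries came from hand-dissected wings of flies aged 3 days. One group carried the Poxn 70 allele, in which the wing lacks chemosensory sensilla, and the other was the w1118 Canton-S stock. Mutant lines of the study were backcrossed to that stock, so both groups share its w1118 allele. There were 3 libraries of each genotype, each from an independent collection of a large pool of wings, and p-values measure the spread between these libraries. The sex of the flies was not given in the sources used here.

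In flies, apoptosis is set by a balance between these genes. Diap1 binds caspases and holds them in check, and the Rpr, Hid, Grim and Skl proteins bind Diap1 and release that hold. The adaptor Dark then assembles Dronc, which cleaves the effector caspases. In the newly emerged fly, most epithelial cells of the wing blade die and are cleared, and hid, Dark and Dronc are known to be needed for this. Flies aged 3 days are past that stage, and the living cells of the wing are then those of the veins, nerves, sensilla and margin.

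The libraries held between 14021115 and 16182811 counts on genes in the Poxn-labelled group and between 10074860 and 14269486 in the control-labelled group. Levels are given as CPM, counts per 1000000 of a library size corrected with edgeR's TMM factors, and that corrected size ran from 26091047 to 30066751 in the Poxn-labelled libraries and from 3180073 to 18230518 in the control-labelled libraries. A gene with 0 counts may thus have had up to 0.115 CPM in a Poxn-labelled library and up to 0.943 CPM in control replicate 1, a limit that covers counting error only. Genes with transcripts under 600 nt took between 5.68% and 7.03% of the counts in the Poxn-labelled libraries and between 16.6% and 30.6% in the control-labelled libraries. The Poxn transcript had 92, 86 and 85 counts in the libraries labelled Poxn and 0, 6 and 3 in those labelled control, so the mutated gene was higher under its own mutant label, and every direction below follows the labels. A gene of chemosensory neurons, ppk25, ran the way the labels say, with means of 0.130 CPM in the Poxn-labelled libraries and 15.5 CPM in the control-labelled libraries (log2 fold change −6.82, adjusted p = 0.00983, edgeR), and was chosen after its values were seen. All 8 genes listed as markers of wing cells (vg, sd, nub, ap, bs, en, salm and bi) had counts in each library. Summed levels of neuron markers were between 512 and 606 CPM in the Poxn-labelled libraries and between 322 and 1358 CPM in the control-labelled libraries, and those of glia markers between 88.4 and 112 CPM against between 48.0 and 75.8 CPM. These sums rest largely on 1 gene each, Syx1A (means of 436 and 645 CPM) and Eaat1 (means of 54.1 and 32.6 CPM). The single markers were mixed, with a positive log2 fold change for 1 of 6 tested neuron markers and 3 of 5 tested glia markers (edgeR).

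No member of the pathway passed the test. At an adjusted p under 0.05 (edgeR's quasi-likelihood test with Benjamini-Hochberg adjustment over 8973 genes), 0 of the 7 tested members were higher and 0 were lower in the Poxn-labelled libraries, where 2.69% and 4.95% of all tested genes were. At the study's stricter criterion, more than 4-fold with an adjusted p under 0.01, the numbers were again 0 and 0, against 0.0557% and 0.602% of all tested genes. The study set this criterion on DESeq2 p-values, and here it was set on edgeR p-values, so these shares are not those of the study. At an unadjusted p under 0.05 (edgeR, TMM factors) there was 1 member, hid, which was lower. At that threshold 17.8% of all tested genes were lower and 14.1% higher. With total counts, 5 members were higher and 0 lower at that threshold, beside 2796 and 199 of all 8973 tested genes. DESeq2 called hid lower and Diap1 higher, as it did 16.7% and 8.01% of all tested genes, and limma voom called 0 members. The median log2 fold change of the 7 was 0.71, compared with 0.0072 for all tested genes, and 6 of the 7 had a positive value. All fold changes are Poxn-labelled over control-labelled libraries.

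**Figure D1:**
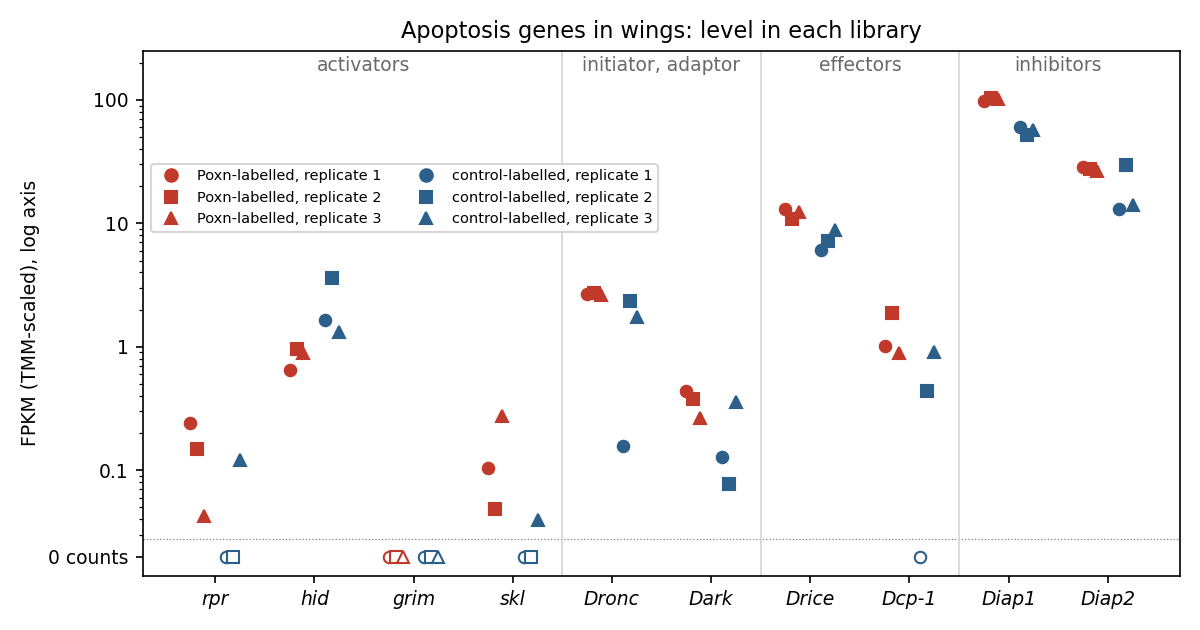
Level of each apoptosis gene in each library, as FPKM (TMM-corrected CPM per kilobase of the longest transcript) on a log axis, with Poxn-labelled libraries in red to the left of control-labelled libraries in blue and open symbols for 0 counts. Diap1 lies above all others in the 6 libraries, and grim has no count in any.

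Levels of different genes were compared as FPKM, the CPM divided by the length of the longest transcript in kilobases. The inhibitors stood at the top. In the Poxn-labelled libraries the order was Diap1 at 100.8 ± 2.65 FPKM, Diap2 at 27.6 ± 0.920, Drice at 12.1 ± 1.13, Dronc at 2.66 ± 0.0508, Dcp-1 at 1.26 ± 0.528, hid at 0.837 ± 0.169 and Dark at 0.359 ± 0.0854 (SD, n = 3), with rpr and skl both at 0.143 below them. The ranges of Dcp-1 and hid overlapped, as did those of Dark and skl, and those of neighbours above Dcp-1 did not. In the control-labelled libraries the order was Diap1 at 56.2 ± 3.85 FPKM, Diap2 at 18.9 ± 9.28, Drice at 7.39 ± 1.44, hid at 2.19 ± 1.23, Dronc at 1.42 ± 1.14, Dcp-1 at 0.448 ± 0.455 and Dark at 0.189 ± 0.150 (SD, n = 3). There the ranges of hid and Dronc overlapped, as did those of Dronc and Dcp-1 and of Dcp-1 and Dark. Diap1 ranked 1st, Diap2 2nd and Drice 3rd within every single library. Among the tested genes, Diap1 exceeded 93.4% in mean FPKM in the Poxn-labelled libraries and 85.6% in the control-labelled libraries, while Dark exceeded 5.53% and 2.44%.

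Among the activators, only hid was expressed well above the counting limit. The hid, grim, rpr and skl genes lie in this order along 272 kb of chromosome 3L, all on the reverse strand. The gene hid (FBgn0003997; 3L, 18167745 to 18185641, release 6 assembly), whose protein binds Diap1 and also acts downstream of growth factor signals, had 72, 117 and 94 counts in Poxn replicates 1 to 3 and 21, 76 and 97 in control replicates 1 to 3. As CPM it had 2.60, 3.89 and 3.60 in the Poxn-labelled libraries against 6.60, 14.5 and 5.32 in the control-labelled libraries. The groups did not overlap, as was so for 17.9% of all tested genes in this direction, and control replicate 2 stood far above the other libraries. The log2 fold change was −1.38 (standard error 0.472, 95% interval −2.46 to −0.30, adjusted p = 0.0896, edgeR), and it was 0.21 when libraries were scaled by total counts. DESeq2 gave −1.50 with an adjusted p of 0.0199, and edgeR gave −1.70 with an adjusted p of 0.0409 without control replicate 3. Without control replicate 2 it was −0.79 (adjusted p = 0.121, edgeR).

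Scaling decided the sign of the hid value but not its side of the median of all genes. With total counts, all genes together had a median log2 fold change of 1.39, and hid lay 1.18 below that median (a difference of −1.18). Relative to the median of all genes in the same setting, hid was below it in 15 of 15 alternatives, by between −1.75 and −0.70. Taking this difference removes most of what scaling changes, and the alternatives reuse the same libraries. Their agreement is thus not independent support. In bulk libraries, fewer cells of a type and less RNA per cell cannot be told apart. Hemocytes take part in clearing dying cells, and the summed level of 6 hemocyte markers was 27.03, 15.4 and 18.2 CPM in Poxn replicates 1 to 3 against 44.3, 68.7 and 25.3 CPM in control replicates 1 to 3. Among the control-labelled libraries the sum was highest where hid was highest, and among the Poxn-labelled libraries it was highest where hid was lowest. All 5 tested hemocyte markers had a negative log2 fold change, with a median of −0.91, and 0 passed the test (edgeR; at an unadjusted p under 0.05, Pxn was the only one). The part of this in the hid value was not tested.

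The gene rpr (FBgn0011706; 3L, 18397535 to 18398435), the first of these activators to be described, had 6, 4 and 1 counts in the Poxn-labelled libraries and 0, 0 and 2 in the control-labelled libraries. Per corrected library size the summed counts gave a ratio of 1.75 (95% exact interval 0.382 to 16.2, Clopper-Pearson, counting error only). The gene skl (FBgn0036786; 3L, 18438561 to 18439942), a relative of rpr, had 4, 2 and 10 counts against 0, 0 and 1, a ratio of 5.09 (0.790 to 213). With libraries scaled by total counts the ratios were 4.46 (0.973 to 41.4) for rpr and 12.96 (2.01 to 544) for skl. The interval of skl thus included 1 with corrected sizes and not with total counts, and that of rpr included 1 with both. Neither gene passed the filter on low counts, and without that filter edgeR gave a log2 fold change of 1.05 for rpr (adjusted p = 0.668) and 2.42 for skl (adjusted p = 0.334). The highest count of skl was in Poxn replicate 3, where the male accessory gland markers SP and Acp26Aa had 281 and 987 counts, against at most 16 in any other library. The testis markers Mst87F, betaTub85D and Mst84Da had 3, 0 and 0 counts there. The part of this in the skl count was not tested.

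The fourth activator, grim (FBgn0015946; 3L, 18302719 to 18304417), had 0 counts in all 6 libraries. Of the 1699 nt of its transcript, 1290 nt are shared with 2 non-coding genes, lncRNA:CR45975 on the same strand and asRNA:CR45974 on the other, where a read may have been set aside as ambiguous. These had at most 1 count in any library.

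Dronc and Dark, which together form the apoptosome, were both low. Dronc (FBgn0026404; 3L, 9968479 to 9971002) had 149, 164 and 137 counts in the Poxn-labelled libraries and 1, 25 and 64 in the control-labelled libraries. That was 5.37, 5.46 and 5.25 CPM against 0.314, 4.76 and 3.51 CPM. The Poxn-labelled values were nearly equal and all above the control-labelled ones, as was so for 22.5% of all tested genes. Among the control-labelled libraries, control replicate 1, with a single count, stood far below the others. For Dronc the log2 fold change was 0.83 (standard error 0.631, 95% interval −0.61 to 2.27, adjusted p = 0.4003, edgeR), and it was 0.40 without control replicate 1.

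Dark (FBgn0263864; 2R, 17020027 to 17026703), the fly relative of vertebrate Apaf-1, had 59, 55 and 34 counts in the Poxn-labelled libraries against 2, 2 and 32 in the control-labelled libraries. As CPM these were 2.13, 1.83 and 1.303 against 0.629, 0.381 and 1.76, so control replicate 3 fell among the Poxn-labelled libraries. For Dark the log2 fold change was 0.71 (95% interval −0.61 to 2.03, standard error 0.577, adjusted p = 0.431, edgeR). The value depended on control replicate 3, being 1.82 when it was left out and 0.05 against it alone, and it was 0.36 without control replicate 2. An antisense gene, asRNA:CR44390, shares 2779 nt with the exons of the 2 Dark transcripts, the longest of which has 4883 nt. This antisense gene had 0 counts in every library. The strand setting of the counting is not stated, so reads of that stretch may be missing from Dark.

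Of the effector caspases, Drice was the abundant one. Drice (FBgn0019972; 3R, 29799658 to 29801584), which carries out most of the cleavage in dying cells, had 701, 631 and 623 counts in the Poxn-labelled libraries and 37, 73 and 313 in the control-labelled libraries. It stood at 25.3, 21.0 and 23.9 CPM against 11.6, 13.9 and 17.2 CPM. The groups did not overlap, as was so for 22.5% of all tested genes in this direction. The log2 fold change was 0.71 (standard error 0.311, 95% interval −0.0022 to 1.42, adjusted p = 0.158, edgeR), and with offsets for transcript length it was 0.22.

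Dcp-1 (FBgn0010501; 2R, 23551313 to 23553547), a closely related caspase known for its part in the germline, had 49, 98 and 41 counts in the Poxn-labelled libraries and 0, 4 and 29 in the control-labelled libraries. The levels were 1.77, 3.26 and 1.57 CPM against 0, 0.761 and 1.59 CPM, and the groups overlapped, since control replicate 3 lay just above Poxn replicate 3. Poxn replicate 2, the highest, was also the highest library in the summed flight muscle markers, at 288 CPM against between 111 and 213 CPM in the other 5, and the part of this was not tested. For Dcp-1 the log2 fold change was 1.18 (95% interval −0.44 to 2.79, standard error 0.707, adjusted p = 0.290, edgeR). It was 2.22 without control replicate 3. Its exons share 239 nt with pita on the opposite strand, which had between 17.1 and 18.8 CPM in the Poxn-labelled libraries and between 9.75 and 10.9 CPM in the control-labelled libraries.

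The inhibitors were the most abundant members. Diap1 (FBgn0260635; 3L, 16038410 to 16051034), a ubiquitin ligase that keeps Dronc, Drice and Dcp-1 inactive, had 6253, 7124 and 6119 counts in the Poxn-labelled libraries and 438, 631 and 2382 in the control-labelled libraries. Its CPM were 225, 237 and 235 against 138, 120 and 131, so that replicates of a genotype lay close together with these factors. Scaled by total counts the values were 395.5, 440.2 and 436.4 against 33.85, 62.63 and 166.9, so the control-labelled libraries then spread widely. With the TMM factors the groups did not overlap, as was so for 22.5% of all tested genes in this direction. The log2 fold change was 0.84 (1.79-fold, standard error 0.374, 95% interval −0.01 to 1.70, adjusted p = 0.161, edgeR). DESeq2 gave 0.71 with an adjusted p of 0.0279. With total counts it was 2.27 (adjusted p = 0.0384, edgeR), 0.88 above the median of all genes in that setting, and with length offsets it was 0.20 (adjusted p = 0.769, edgeR).

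Diap2 (FBgn0015247; 2R, 15932170 to 15934825), which also serves in the immune deficiency pathway, had 1659, 1755 and 1460 counts in the Poxn-labelled libraries and 88, 328 and 539 in the control-labelled libraries. This gave 59.8, 58.4 and 56.0 CPM against 27.7, 62.4 and 29.6 CPM. Control replicate 2 stood above the Poxn-labelled libraries and the other control-labelled libraries well below them. The log2 fold change of 0.54 (standard error 0.392, 95% interval −0.35 to 1.44, adjusted p = 0.377, edgeR) was 1.03 without control replicate 2 (adjusted p = 0.0219), 0.35 without control replicate 1, 0.33 without control replicate 3 and −0.03 with length offsets.

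**Figure D2:**
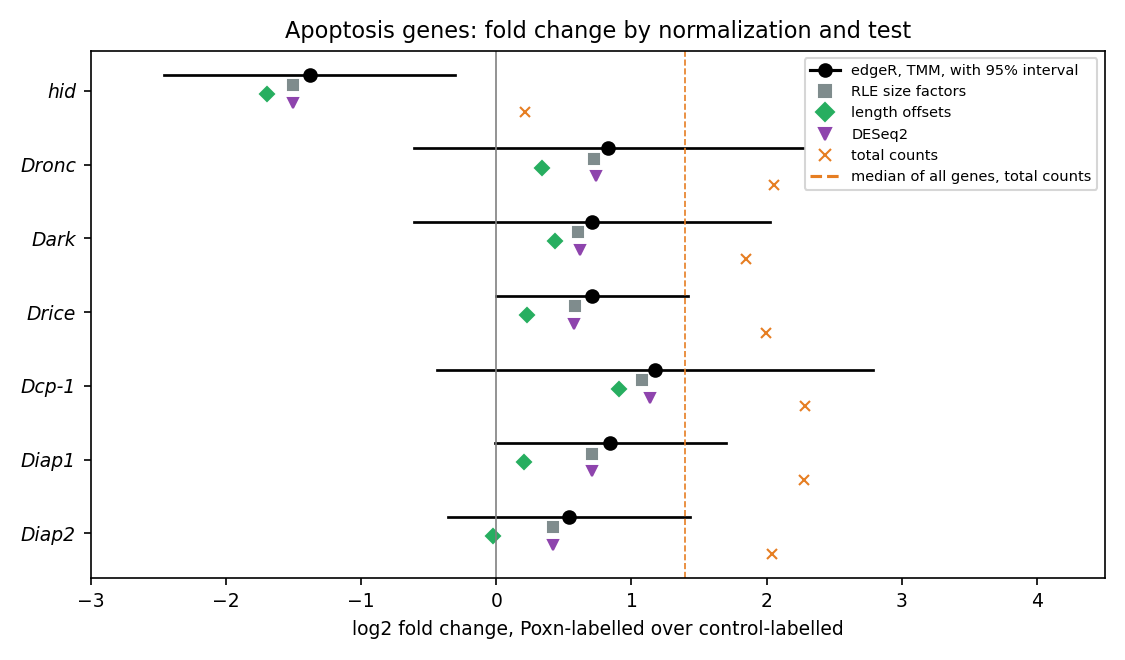
Log2 fold change of the 7 tested apoptosis genes, Poxn-labelled over control-labelled libraries, with the 95% interval of the edgeR test (black) and the values with RLE size factors, length offsets, DESeq2 and total counts. The value of hid lies at −1.38 by TMM and at 0.21 by total counts, for which the dashed line marks the median of all genes (1.39), and that of Diap2 lies at −0.03 with length offsets.

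Counted over members, the libraries of the genotypes did not overlap for 3 of the 7 tested genes with the Poxn-labelled ones higher (Dronc, Drice and Diap1) and for 1 with them lower (hid), where 22.5% and 17.9% of all tested genes behaved in these ways. With total counts, 6 of the 7 were higher without overlap, beside 57.8% of all tested genes, and hid overlapped, while 2.72% of all tested genes were lower without overlap. With 3 libraries in each group, the smallest p an exact permutation test of 1 gene can reach is 0.1.

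Ratios between genes within a library do not depend on how libraries are scaled. As a share of the summed FPKM of the 10 genes, hid made up 0.447%, 0.656% and 0.615% in Poxn replicates 1 to 3 against 2.03%, 3.77% and 1.57% in control replicates 1 to 3. Diap1 made up 67.7%, 69.7% and 69.8% against 73.9%, 54.6% and 67.4%, and the other 8 shares overlapped between the groups as well. Hid ranked 6th of the 10 in each Poxn-labelled library and 4th, 4th and 5th in the control-labelled ones. The 4 activators summed to 0.00785, 0.00892 and 0.00948 of the summed inhibitors in Poxn replicates 1 to 3 and to 0.0225, 0.0440 and 0.0210 in control replicates 1 to 3. The libraries of the genotypes did not overlap, and hid was the most abundant of the activators in each library. This ratio and the share of hid both rest largely on hid and Diap1. A ratio to Diap1 that was lower without overlap was common, at 40.5% of all tested genes.

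Per length, the ratio of hid to Diap1 was 0.00660, 0.00942 and 0.00881 in the Poxn-labelled libraries against 0.0275, 0.0691 and 0.0234 in the control-labelled libraries, a mean difference of −2.11 on the log2 scale. A lower ratio to Diap1 without overlap was found for 40.5% of all tested genes, so this pattern was common in these libraries. The ratio of hid to Diap2 was between 0.0228 and 0.0349 in the Poxn-labelled libraries and between 0.0943 and 0.1251 in the control-labelled libraries. Against Drice it was between 0.0493 and 0.0889, compared with between 0.149 and 0.499. Against Dronc it lay between 0.242 and 0.358, compared with between 0.760 and 10.5, and against Dark between 1.48 and 3.36, compared with between 3.68 and 46.2. Against Dcp-1 it ran from 0.520 to 0.998, compared with 1.46 and 8.27 in control replicates 3 and 2. All 6 ratios of hid were thus lower in the Poxn-labelled libraries without overlap. Ratios lower in this way were found for 33.6% of all tested genes against Dronc, 28.0% against Dark, 34.3% against Drice, 35.8% against Dcp-1 and 28.7% against Diap2, and ratios higher without overlap for 0.936%, 1.46%, 6.42%, 3.10% and 5.34% against the same genes and for 4.60% against Diap1. Except for the ratio to Diap1, these were taken up after the values had been seen.

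**Figure D3:**
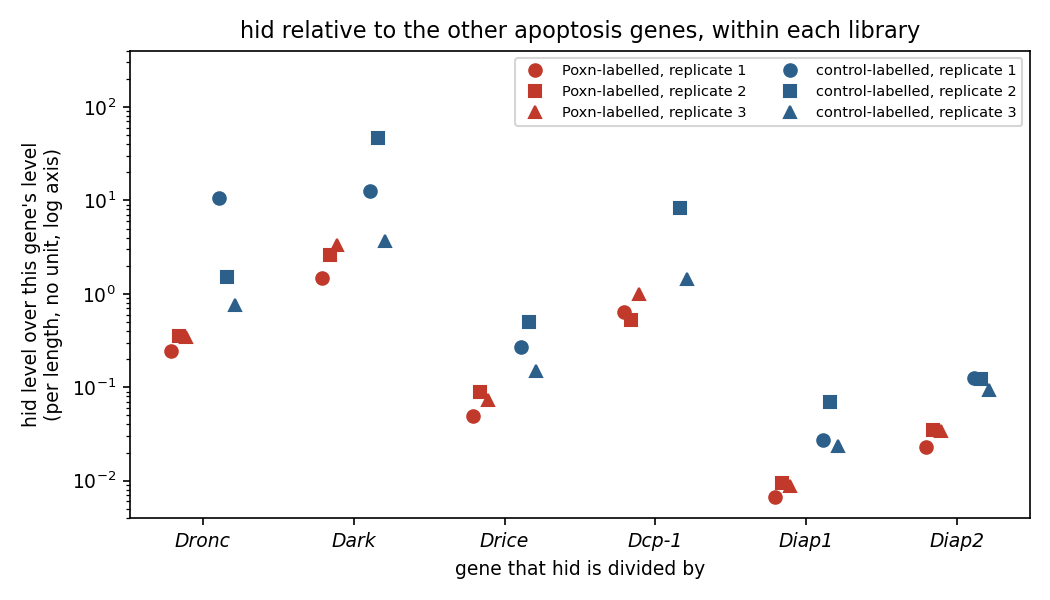
Level of hid divided by the level of each other tested apoptosis gene within a library (per length, no unit, log axis), Poxn-labelled libraries in red to the left of control-labelled libraries in blue. Each red group lies below its blue group, from 0.00660 to 0.00942 against 0.0234 to 0.0691 for Diap1, and control replicate 1 has no ratio to Dcp-1, which had 0 counts there.

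The other ratios overlapped. Drice stood at 0.134, 0.106 and 0.122 of Diap1 in the Poxn-labelled libraries against 0.101, 0.138 and 0.157 in the control-labelled libraries, a mean log2 difference of −0.12. Diap2 stood at 0.290, 0.270 and 0.261 of Diap1 against 0.220, 0.569 and 0.248, a difference of −0.20. Neither ratio thus separated the genotypes. The ratio of Drice to Dronc was between 4.02 and 4.92 against between 3.05 and 38.7, and that of Dronc to Dark between 6.12 and 9.77 against between 1.21 and 30.3.

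Other genes of the pathway were counted from lists of 45 genes. Of the 41 that were tested, 1 was higher and 0 were lower in the Poxn-labelled libraries at an adjusted p under 0.05 (edgeR), compared with 2.69% and 4.95% of all tested genes. At an unadjusted p under 0.05 there were 10 higher and 3 lower, beside 14.1% and 17.8% of all tested genes, and DESeq2 called 5 and 2, beside 8.01% and 16.7%. Their median log2 fold change was 0.28, with 27 of 41 positive. The gene called was Drep1, the fly relative of the inhibitor of the caspase-activated DNase, with 795, 809 and 859 counts in the Poxn-labelled libraries and 20, 19 and 185 in the control-labelled libraries. Drep1 had 29.5 ± 3.10 CPM against 6.69 ± 3.28 CPM (SD, n = 3 each), without overlap, as was so for 22.5% of all tested genes in this direction. For Drep1 the log2 fold change was 2.11 (adjusted p = 0.0321, standard error 0.421, edgeR), in a range from 1.54 to 3.29 over the alternatives. The call was lost with length offsets (adjusted p = 0.0771), without any of the Poxn libraries (adjusted p between 0.1497 and 0.1535) and without control replicate 1 (adjusted p = 0.0620).

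Drep4, the nuclease that Drep1 holds inactive, had 3.23 ± 0.287 CPM in the Poxn-labelled libraries against 2.002 ± 0.707 CPM in the control-labelled libraries (log2 fold change 0.66, adjusted p = 0.319, edgeR), and is named here for that reason. The list of mitochondrial and nuclease effectors, 8 of them tested, had 5 positive values and a median of 0.23. Among its members matched to a gene identifier, the highest per length was Cyt-c-d, a cytochrome c gene, at 40.5 FPKM against 36.2 FPKM. The counts of Cyt-c-d in control replicates 1 to 3 were 232, 7 and 301. Cyt-c-p, also listed, could not be matched by symbol to a gene identifier. Its level is thus not given, and the median and ranking of this list leave it out. Some tested genes of the files had no symbol, and whether Cyt-c-p is among them was not checked.

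Of the 4 other caspase genes only Dredd, which acts mainly in immune signalling, had enough counts to be tested, with 34.0 ± 7.88 CPM against 28.3 ± 22.7 CPM (log2 fold change 0.26, adjusted p = 0.801, edgeR). The others, Strica, Damm and Decay, had at most 25 counts in any library. The Bcl-2 family genes Debcl and Buffy both had a log2 fold change of −0.13, and Debcl, the higher of them per length, had 33.4 ± 4.12 CPM against 36.7 ± 19.6 CPM (adjusted p = 0.851, edgeR). The 7 genes listed together as other BIR genes and regulators of the inhibitors, a list that includes eIF3m, had a median of −0.22 and 3 positive values. The highest of them per length was eIF3m, a translation factor subunit known also as a partner of the fly apoptosome, at 268 FPKM against 315 FPKM.

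The 13 genes of p53 and JNK signalling, which relay stress to the activators, had a median log2 fold change of 0.38, and 10 were positive. None passed the test (edgeR), with 4 higher and 1 lower at an unadjusted p under 0.05, where 14.1% and 17.8% of all tested genes were. The most abundant per length was grnd, a receptor of the TNF relative Eiger, at 49.0 FPKM against 40.0 FPKM. The transcript of p53 itself had 4.77 ± 1.05 CPM against 3.48 ± 1.92 CPM (log2 fold change 0.39, adjusted p = 0.625, edgeR), and was chosen after its values were seen. The 10 engulfment genes, used by cells that clear dying neighbours, had a median of 0.51 with 8 positive and 0 called (edgeR), and 4 of them were higher and 0 lower at an unadjusted p under 0.05, beside the same 14.1% and 17.8%. The most abundant per length was ced-6, an adaptor of the engulfment receptor Draper, at 56.6 FPKM against 45.3 FPKM.

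**Figure D4:**
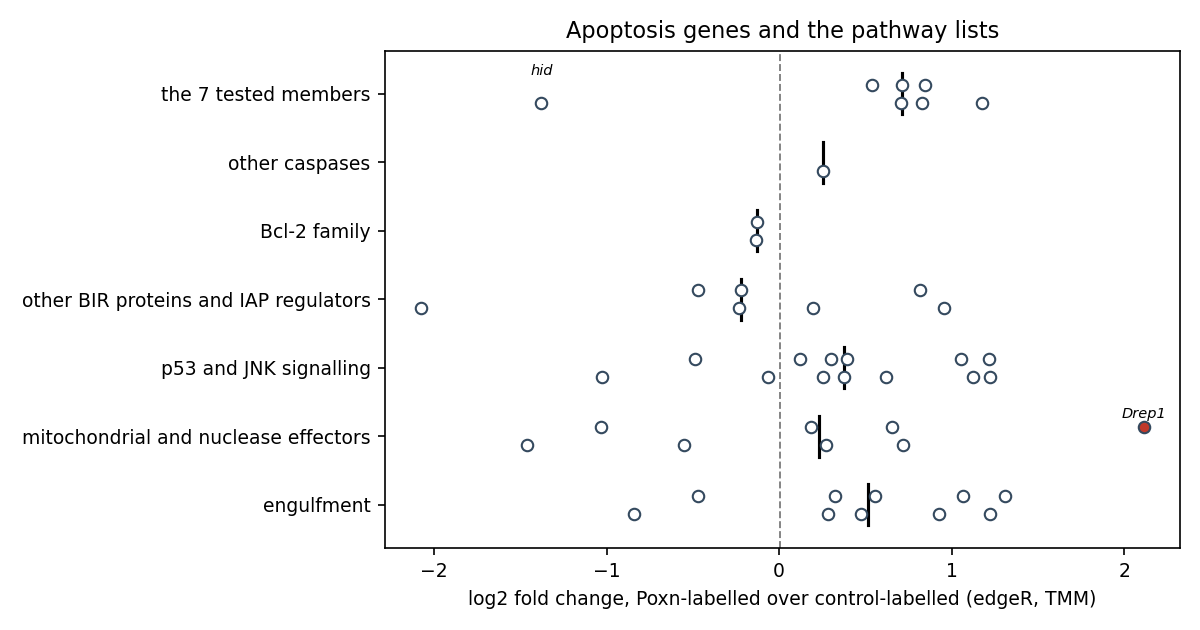
Log2 fold change (edgeR, TMM factors) of the tested apoptosis genes and of each pathway list, 1 circle per gene, with a bar at the median of each list, a dashed line at the median of all tested genes (0.0072) and a filled circle for an adjusted p under 0.05. Drep1 at 2.11 is the filled circle, and hid at −1.38, a value that was 0.21 with total counts, lies apart from the other 6 tested members.

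Transcript length moved with these values. Among all tested genes with an annotated length, the median log2 fold change was −0.86 for transcripts of 72 to 1272 nt, 0.19 for those of 1273 to 2053 nt, 0.59 for those of 2054 to 3429 nt and 0.04 for those of 3430 nt or more, 4 bins of nearly equal size. The longest transcripts of Drice, Dronc and Dcp-1 have 1927, 2015 and 1749 nt and those of Diap1 and Diap2 have 2304 and 2106 nt, all in the middle bins, while hid with 4018 nt and Dark with 4883 nt are in the longest. With offsets for length, the median of the 7 members was 0.22, against −0.05 for all genes, and hid lay at −1.69 (adjusted p = 0.0654, edgeR).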

How the data were processed

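Raw read counts per gene, whole numbers without normalization, were deposited by the authors for each of 6 libraries. The libraries were of poly(A)+ RNA, and the authors used Trim Galore 0.4.0 for trimming and STAR 2.4.2a for alignment, with the FlyBase r6.09 genome. HTSeq is named in the submitters' processing notes, and its version and strand setting are not given in the sources used here. A further deposited table, holding scaled counts and the authors' own DESeq2 comparison with fold changes and p-values, was not used, including its 6 per-library columns. Reads on no gene (47.9% to 58.6% of each file's sum), ambiguous reads (1.24% to 2.69%) and reads aligned to several places (5.76% to 12.2%) were left out.

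The groups came from the sample labels, and the genotypes were compared with edgeR 4.0.16 (R 4.3.3), with TMM factors, the quasi-likelihood test, a prior count of 0.125 and filterByExpr (minimum count 10). A standard error was obtained by dividing the absolute log2 fold change by the root of the F statistic, and its interval from the t distribution. Alternatives were RLE factors, total counts, length offsets (lowess span 0.4), DESeq2 1.42.0, limma 3.58.1 voom, other filters, a replicate block and each library left out. Comparing control replicate 3 alone, and hid with each other member, were added after seeing the data. The members and lists were chosen with earlier results of these data known. The text names every member, Poxn, and, of each pathway list, the genes called and the highest per length, and ppk25, p53, Drep4, Buffy, Strica, Damm, Decay, single markers and overlapping genes were named after their values had been seen. Lengths and positions came from the Ensembl annotation of the same assembly, with a length for 17229 of 17476 genes. Symbols came from a separate table of gene names, with the Ensembl name where that table had none. List symbols without a match were looked up among RefSeq synonyms. The fits were checked on simulated counts.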

Additional observations from a re-analysis of the deposited data

How the results depend on the processing

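The count of members called, 0 higher and 0 lower in the Poxn-labelled libraries, became 1 and 1 with DESeq2 (Diap1 and hid), 1 and 0 with total counts (Diap1), 2 and 0 against control replicate 3 alone (Diap1 and Diap2), and ranged from 0 to 1 in each direction over the fits that left out 1 library. It stayed at 0 and 0 with RLE factors, length offsets, limma voom, both other filters and the criterion of the study. Of single members, hid turned to 0.21 with total counts, where the median of all genes was 1.39, and Diap2 to −0.0272 with length offsets. Why the settings differed was not tested. The pathway lists, with 1 higher and 0 lower, had 3 and 0 with total counts, 0 and 0 with length offsets, 5 and 2 with DESeq2, 3 and 0 without the filter, 16 and 4 against control replicate 3 alone, 0 and 0 at the criterion of the study, and from 0 to 10 and from 0 to 1 with 1 library left out. Among all genes, 241 higher and 444 lower became 425 and 95 with total counts, 55 and 145 with length offsets, 719 and 1498 with DESeq2, 1695 and 1658 against control replicate 3 alone, and 5 and 54 at the criterion. Limma voom gave 766 lower. Leaving out 1 library gave from 3 to 1106 higher and from 39 to 1484 lower. Without a Poxn library the higher calls were 3 or 4, and without control replicate 1, 2 or 3 they were 59, 1106 and 726. The replicate numbers are not stated to pair the libraries, and the deviations of same-numbered libraries correlated at 0.123, 0.142 and −0.0680. With the replicate number as a block, the members called were 0 and 0, the list genes 1 and 0 and all genes 182 and 353. Counts were too low to test rpr, skl and grim. Dronc, Dark and Dcp-1 had 1, 2 and 0 counts in control replicate 1, which had the smallest corrected size.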
